A study of Mus musculus with 13 samples.

Results

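Oxidative phosphorylation subunits are the proteins that make up the respiratory chain and the ATP synthase of the mitochondrial inner membrane. Their genes were collected here by symbol from a brain RNA sequencing study of endothelial Pdcd10 loss and hypoxia. Symbols beginning with Ndufa, Ndufb, Ndufc, Ndufs, Ndufv, Uqcr, Cox4 to Cox8, Atp5, mt-Nd, mt-Co, mt-Cytb or mt-Atp were taken, together with Sdha, Sdhb, Sdhc, Sdhd and Cyc1. Of 121 symbols that matched, 8 Ndufaf assembly factors, Ndufa4l2 and 9 symbols holding -ps (the mark of a pseudogene) were dropped. Also dropped were 4 genes with a mean under 10 counts. This left 99 genes of 55416 gene identifiers in the count table, of which 86 are encoded in the nucleus and 13 in the mitochondrial genome. Cox8b, at a mean of 15.2 counts per library, and Cox7a1, at 33.3, lay just inside the minimum, and Cox7b2, at 7.4, lay just outside it.

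Complexes I and II pass electrons from NADH and succinate to ubiquinone, complex III passes them on to cytochrome c, and complex IV (cytochrome c oxidase) hands them to oxygen. The proton gradient built by complexes I, III and IV drives complex V, the ATP synthase. Subunits come from both genomes except in complex II, which is wholly nuclear, and in brain the chain supplies most of the ATP that neurons use. Several complex IV subunits have isoforms of restricted expression. Cox4i2 is a variant of subunit 4 found in lung and in cells of the vessel wall and is known as a target of hypoxia-inducible factors in cultured cells, whereas Cox4i1 is the general form.

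Among the 99 genes, 45 belong to complex I (38 nuclear and 7 mitochondrial), 4 to complex II and 10 to complex III (9 and 1). Complex IV holds 21 (18 and 3, with Ndufa4 counted there) and complex V 19 (17 and 2). The symbols are older than the authors' genome build in places: Atp5a1 is now Atp5f1a, Atp5b is Atp5f1b, and Atp5g1, Atp5g2 and Atp5g3 are Atp5mc1, Atp5mc2 and Atp5mc3. The prefixes also brought in Atp5s, now Dmac2l, a coupling factor, and Cox7a2l, a factor of respiratory supercomplexes. They missed Atpif1 (Atp5if1) and Usmg5 (Atp5md). Among the symbols dropped for -ps was Ndufb1-ps, which RefSeq lists as protein-coding Ndufb1. Cox6c2, Ndufb4c and Ndufs6b resemble copies of other members, so reads may be split between them and their values are uncertain. The overlapping pairs mt-Atp8 with mt-Atp6 and mt-Nd4l with mt-Nd4 can share reads. Because the mitochondrial genes are cut from shared precursor transcripts, they are not independent of one another.

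Messenger RNA came from mouse brain tissue and made up 13 libraries in 4 groups. Knockouts (KO) carried Slco1c1-iCreERT2, a tamoxifen-dependent Cre driven by a brain endothelial promoter, with both Pdcd10 alleles floxed (Slco1c1-iCreERT2; Pdcd10fl/fl), and had received 50 µg of 4-hydroxytamoxifen into the stomach on postnatal day 1. Controls (flox) were Pdcd10fl/fl littermates without Cre. The groups were KO in normoxia (21% oxygen, n = 3), flox in normoxia (n = 3), KO in hypoxia (12% oxygen for 7 days, n = 4) and flox in hypoxia (n = 3). Loss of Pdcd10 (Ccm3) in endothelium is a mouse model of cerebral cavernous malformation, and the comparisons ask what this loss, lowered oxygen and their combination do to the brain transcriptome. The design text also mentions Cre carriers that were not injected as controls and leaves it unclear whether flox pups were injected. Effects of the deletion, the Cre transgene and the injection therefore cannot be told apart. No age at harvest or animal identifier is given, so p-values measure only the spread between these libraries.

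Library totals ran from 42090437 to 71216636 counts. Pdcd10 was at 16.9 ± 1.07 CPM (read count scaled to library size) in KO and 17.1 ± 0.799 CPM in flox in normoxia, and at 16.4 ± 1.09 CPM in KO and 17.4 ± 0.194 CPM in flox in hypoxia (SD). Since the deletion is restricted to endothelium, this whole-tissue level does not check the genotype labels. All libraries are labelled male, but Xist was present in 4: replicate 3 of KO normoxia, replicate 3 of flox normoxia and replicates 3 and 4 of KO hypoxia. The summed level of 12 neuronal markers was 8460 ± 187 CPM in KO and 8305 ± 103 CPM in flox in normoxia, and 7910 ± 12.6 CPM in KO against 8518 ± 63.2 CPM in flox in hypoxia (SD). Endothelial markers summed to 353 CPM in KO and 169.6 CPM in flox in normoxia, and to 513 CPM in KO and 239.7 CPM in flox in hypoxia. Erythroid transcripts averaged 7113 CPM in KO hypoxia, where replicate 1 reached 17400 CPM, and 533 CPM in flox hypoxia. In bulk tissue, fewer cells of a type and less RNA per cell cannot be told apart.

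The level of a subunit transcript depended first on its genome of origin. The table of RPKM (read counts scaled to transcript length and library size) allows genes to be compared per length. Mean levels over the 13 libraries were 615 to 9859 RPKM for the 13 mitochondrial genes (median 3094) and 0.813 to 366 RPKM for the 86 nuclear genes (median 32.5), and the ranges did not overlap. The highest mitochondrial level was that of mt-Co1, the catalytic core subunit of complex IV (9859 RPKM), followed by mt-Cytb of complex III (5112) and mt-Nd1 of complex I (4483). The lowest was mt-Nd3 (615 RPKM). Among nuclear genes, Cox8a and Cox6a1 of complex IV stood at 366 and 251 RPKM, and the alpha and beta subunits of the ATP synthase, Atp5a1 and Atp5b, at 229.5 and 215 RPKM.

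Within each complex, nuclear transcripts differed widely although their proteins assemble in fixed proportions. In complex I the median nuclear level was 27.4 RPKM, and the lowest was 2.62 RPKM for Ndufb2, an accessory subunit. Complex II ranged from 82.4 RPKM for Sdha, the flavoprotein that oxidises succinate, to 19.6 RPKM for Sdhc, a membrane anchor. Complex III ran from Uqcr10 at 79.96 RPKM to Uqcrb at 31.9 RPKM. In complex V the nuclear range was 229.5 RPKM for Atp5a1 to 2.76 RPKM for Atp5l, a subunit of the membrane part. The lowest values depend on the length by which the authors divided, which was 5628 bases for Ndufb2 and 6443 bases for Atp5l, against 619 bases for Cox8a.

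**Figure D1:**
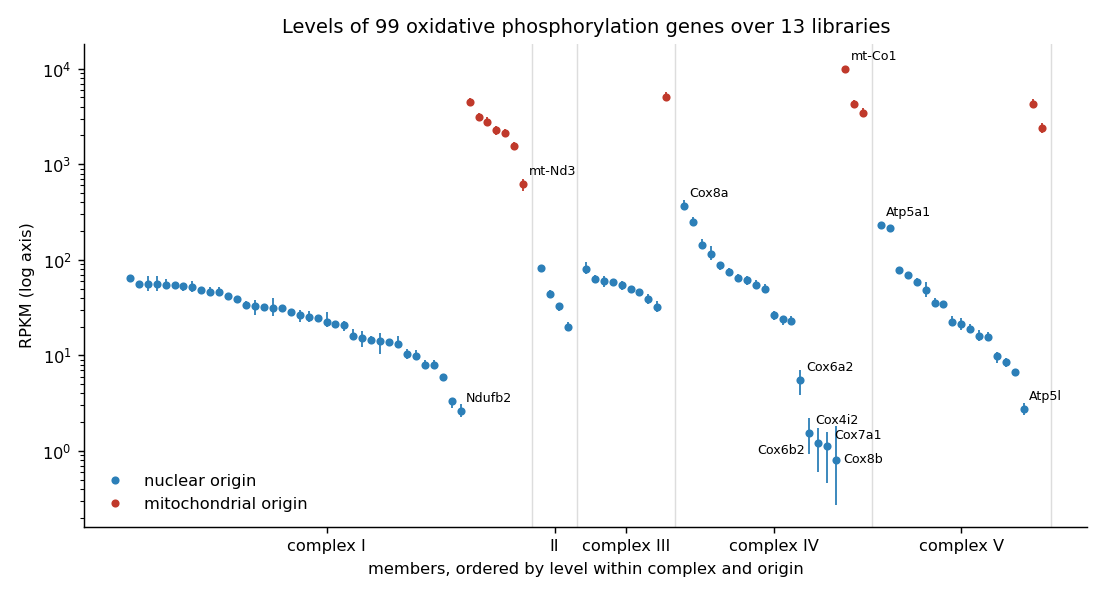
Mean RPKM (log axis) of the 99 genes, ordered within complex and genome of origin; points are means over 13 libraries and lines run from the lowest to the highest library. All 13 mitochondrial genes lie above all 86 nuclear genes, and the rare complex IV isoforms Cox6a2, Cox4i2, Cox6b2, Cox7a1 and Cox8b form the low end of complex IV.

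The rare end of complex IV was made up of tissue-restricted isoforms. Cox6a2, Cox7a1 and Cox8b are the forms of heart and skeletal muscle, and Cox6b2 is a form of testis. As a share of the RPKM of an isoform pair in flox normoxia, Cox6a2 made up 2.35 ± 0.529%, Cox6b2 0.909 ± 0.0932%, Cox7a1 1.5 ± 0.251%, Cox8b 0.182 ± 0.0996% and Cox4i2 0.731 ± 0.0785% (SD, n = 3). The c subunit of the ATP synthase rotor, one mature protein encoded by several genes, came mainly from Atp5g3, at 79.3 ± 0.214% of the Atp5g total in flox normoxia, with Atp5g1 at 11.2 ± 0.278% and Atp5g2 at 9.49 ± 0.348%. The Atp5g3 share stayed between 77.0% and 80.7% in all 13 libraries. These shares depend on the lengths divided by, which were 4912 bases for Atp5g1, 1675 for Atp5g2 and 2181 for Atp5g3. In raw counts, replicate 1 of flox normoxia held 2615 for Atp5g1, 764 for Atp5g2 and 8357 for Atp5g3.

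Promoters of the complex IV pairs Cox7a2 and Cox7a1, and Cox8a and Cox8b, are shown as examples of abundant and rare isoforms whose levels differ widely. Cox6a1 is shown without its rare partner Cox6a2. RefSeq windows from 250 bases before to 50 bases after the start (300 bases; GRCm38.p6, not the authors' build) were at hand for 68 of the 86 nuclear genes, but not for Cox4i1, Cox4i2, Cox6a2 or Cyc1. Capitals mark matches, on either strand, to GCGCATGC (NRF1), CCGGAAGT (GABPA), AAGATGGC (YY1), ACGTG or TATAAA (a core promoter element). ACGTG is a form of the core bound by hypoxia-inducible factors, and its other form, GCGTG, was not searched. Windows are given 5′ to 3′ in the direction of transcription. Cox6a1 lies at chr5:115348909-115349208 (minus strand), Cox7a2 at chr9:79759804-79760103 (minus), Cox7a1 at chr7:30183921-30184220 (plus), Cox8a at chr19:7217567-7217866 (minus) and Cox8b at chr7:140900397-140900696 (minus).
Cox6a1: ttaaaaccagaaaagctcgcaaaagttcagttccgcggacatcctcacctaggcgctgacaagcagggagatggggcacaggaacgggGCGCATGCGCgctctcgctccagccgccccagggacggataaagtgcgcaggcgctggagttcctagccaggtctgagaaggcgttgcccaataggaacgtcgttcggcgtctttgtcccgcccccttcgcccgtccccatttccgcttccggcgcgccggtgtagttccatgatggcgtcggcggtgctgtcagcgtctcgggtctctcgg
Cox7a2: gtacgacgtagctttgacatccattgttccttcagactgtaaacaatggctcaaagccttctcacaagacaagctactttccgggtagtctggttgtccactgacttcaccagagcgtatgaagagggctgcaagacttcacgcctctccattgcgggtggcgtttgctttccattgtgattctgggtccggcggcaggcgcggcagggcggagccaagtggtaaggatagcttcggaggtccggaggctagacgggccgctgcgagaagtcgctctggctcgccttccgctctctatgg
Cox7a1: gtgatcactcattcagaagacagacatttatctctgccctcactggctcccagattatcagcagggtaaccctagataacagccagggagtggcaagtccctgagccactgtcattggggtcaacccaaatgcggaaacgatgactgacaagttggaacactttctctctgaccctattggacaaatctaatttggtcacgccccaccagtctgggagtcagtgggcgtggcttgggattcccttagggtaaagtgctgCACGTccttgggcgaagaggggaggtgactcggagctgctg
Cox8a: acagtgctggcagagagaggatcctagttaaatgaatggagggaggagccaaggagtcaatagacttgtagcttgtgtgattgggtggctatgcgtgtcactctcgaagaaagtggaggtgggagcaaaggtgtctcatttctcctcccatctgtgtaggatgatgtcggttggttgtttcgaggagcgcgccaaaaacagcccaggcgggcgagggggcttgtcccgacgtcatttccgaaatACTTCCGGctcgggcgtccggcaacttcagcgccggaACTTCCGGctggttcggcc
Cox8b: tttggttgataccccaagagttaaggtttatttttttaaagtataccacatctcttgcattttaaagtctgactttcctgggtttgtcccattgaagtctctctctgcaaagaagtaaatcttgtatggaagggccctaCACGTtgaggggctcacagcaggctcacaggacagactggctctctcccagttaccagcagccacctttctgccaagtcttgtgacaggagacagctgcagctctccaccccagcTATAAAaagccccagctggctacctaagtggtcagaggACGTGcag

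In these windows Cox6a1 held the NRF1 letters, as overlapping matches on the 2 strands, and Cox8a held the GABPA letters at 2 places. Cox8b held TATAAA once and ACGTG at 2 places, Cox7a1 held ACGTG once, and Cox7a2 held none of the 5 motifs. The windows of Cox6b1 and its rare partner Cox6b2, not printed, also held none. Over all 68 genes, 10 (14.7%) held the NRF1 letters, against 3.0% of 27025 genes in the table. YY1 letters were in 10 (14.7%) against 3.2%, and GABPA letters in 5 (7.4%) against 4.3%. ACGTG was in 18 (26.5%) against 21.8%, and TATAAA in 6 (8.8%) against 15.7%. The median GC content was 58.3% in the windows of the 68 genes and 52.8% over all genes, and GC-rich motifs are commoner in GC-rich windows. A match describes the letters and is not evidence of binding.

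As shares of all counts, neither genome's genes separated KO from flox. The 13 mitochondrial genes held 4.83 ± 0.301% of counts in KO and 4.76 ± 0.154% in flox in normoxia (SD, n = 3 each), and 4.55 ± 0.120% in KO (n = 4) and 4.82 ± 0.393% in flox (n = 3) in hypoxia. The 86 nuclear genes held 0.694 ± 0.0288% in KO and 0.688 ± 0.00569% in flox in normoxia, and 0.6896 ± 0.0332% in KO and 0.679 ± 0.0092% in flox in hypoxia. Mitochondrial counts were 6.97 ± 0.496 times the nuclear ones in KO and 6.91 ± 0.169 times in flox in normoxia, and 6.61 ± 0.347 times in KO and 7.09 ± 0.516 times in flox in hypoxia. For all 3 measures the libraries of KO and flox overlapped under both oxygen levels.

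**Figure D2:**
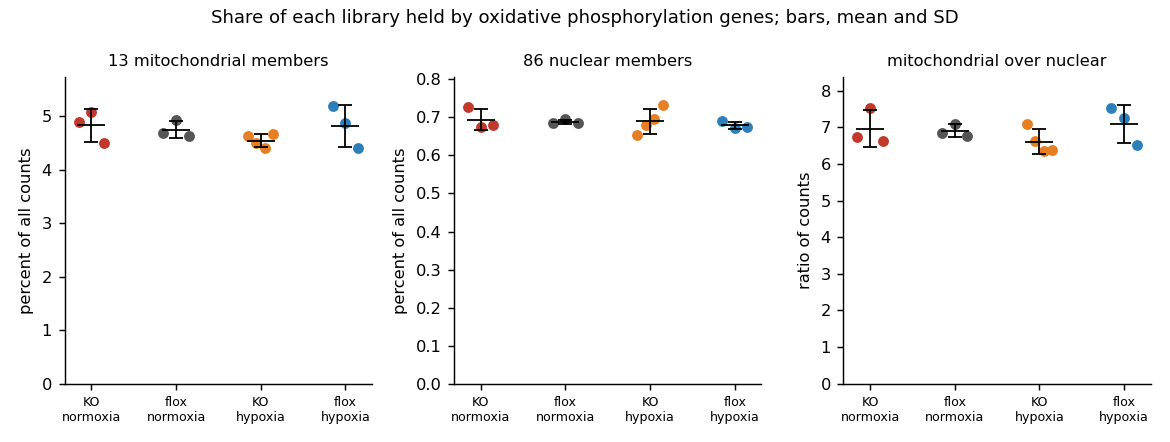
Percent of all counts held by the 13 mitochondrial and the 86 nuclear genes, and the ratio of both, in each library (points) with group mean and SD (bars). The groups overlap in each panel; in flox hypoxia the mitochondrial share runs from 4.41% to 5.19%, and KO hypoxia lies between 4.40% and 4.66%.

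All 99 genes passed the filter on low counts and were tested with edgeR's quasi-likelihood test among 22507 genes. Benjamini-Hochberg adjustment covered all of them, and 0.05 was the threshold. In normoxia, KO differed from flox in 1 of the 99 genes, Cox4i2, which rose. Of all genes 2.33% were called, 1.96% higher and 0.369% lower. Log2 fold changes were above 0 for 46 members and below 0 for 53 (48.9% of all genes above 0), with a median of -0.011 for nuclear and 0.024 for mitochondrial genes, and -0.004 for all genes tested. An unadjusted p under 0.05 was reached by 3 members (Cox4i2, Cox6b2 and Ndufs1) and by 13.6% of all genes.

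Cox4i2 reads were few but higher in every KO library. Its level was 1.74, 1.297 and 1.67 CPM in KO normoxia, against 0.898, 0.726 and 0.883 CPM in flox normoxia, from 82, 91 and 80 counts against 50, 41 and 59. The lowest KO library thus lay above the highest flox library. The log2 fold change was 0.90 ± 0.19 (SE; 95% interval 0.49 to 1.31; edgeR adjusted p = 0.0197). Cox4i1, the general isoform, was at 228, 219 and 204 CPM in KO and 217, 219 and 233 CPM in flox, with a log2 fold change of -0.04 ± 0.06 and overlapping groups. As a share of the RPKM of both isoforms, Cox4i2 made up 1.404 ± 0.227% in KO and 0.731 ± 0.0785% in flox (SD, n = 3 each).

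The call on Cox4i2 was close to the threshold. It was lost without replicate 1 or 3 of KO normoxia (adjusted p = 0.0937 and 0.07) or replicate 1 or 2 of flox normoxia (0.056 and 0.0842), in a fit of only the 6 libraries compared (0.0553) and when the 4 libraries with Xist were left out (0.161), with log2 fold changes of 0.81 to 0.95. On the log2(RPKM + 1) scale the difference was 0.54, because the added 1 is large beside such a low level. Markers of the vessel wall were also higher in KO in this comparison. Of 12 pericyte and smooth muscle markers 6 were called higher in KO normoxia and none lower, with sums of 372 to 399.5 CPM in KO against 220 to 254 CPM in flox, and of 12 endothelial markers 11 were called higher, with sums of 331 to 367 CPM in KO against 159.9 to 179 CPM in flox. None of these markers was at 0, and their part in the Cox4i2 result was not tested. Pdgfrb, the pericyte growth factor receptor, had a log2 fold change of 0.39 ± 0.09 (edgeR adjusted p = 0.0303).

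**Figure D3:**
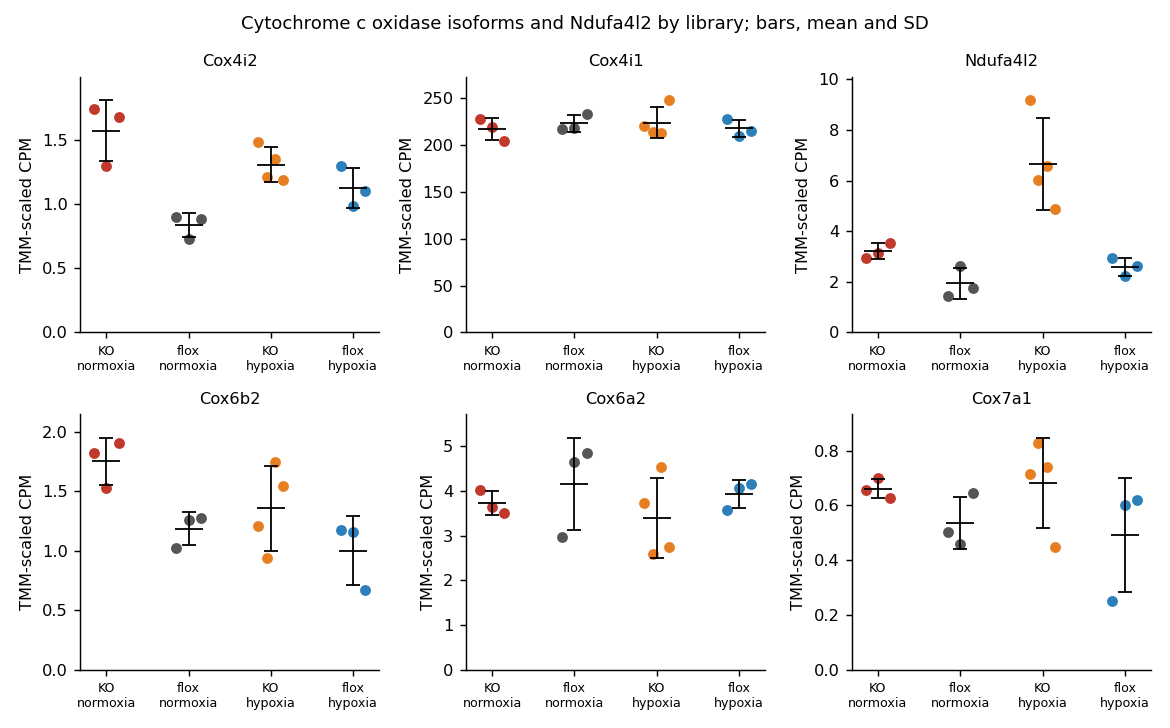
TMM-scaled CPM of complex IV isoforms and of Ndufa4l2 in each library (points) with group mean and SD (bars). In normoxia all 3 KO libraries exceed all 3 flox libraries for Cox4i2 and Cox6b2, Ndufa4l2 reaches 4.86 to 9.17 CPM in KO hypoxia, and Cox4i1, Cox6a2 and Cox7a1 overlap between genotypes.

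The other isoforms were not called. Cox6b2 was at 1.82, 1.53 and 1.905 CPM in KO normoxia and 1.02, 1.26 and 1.27 CPM in flox normoxia; the groups did not overlap, but the log2 fold change of 0.56 ± 0.24 had an edgeR adjusted p of 0.323. Cox7a1, at 0.628 to 0.698 CPM in KO and 0.46 to 0.644 CPM in flox, gave 0.30 ± 0.32. Cox8b gave 0.63 ± 0.65 and Cox6a2 -0.16 ± 0.20, with wide errors. The abundant partners Cox6a1, Cox6b1, Cox7a2 and Cox8a lay between -0.053 and -0.029, each with a 95% interval that included 0. Libraries of KO and flox did not overlap for 5 members that were higher in KO (Atp5b, Atp5f1, Cox4i2, Cox6b2 and Ndufs1; 10.5% of all genes) and for 1 that was lower (Ndufb4; 8.7% of all genes).

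By complex, the nuclear medians in this comparison were -0.011 for complex I, 0.012 for complex II, 0.02 for complex III, -0.036 for complex IV and -0.021 for complex V. The ends of complex I were mt-Nd6 (0.13 ± 0.08) and Ndufa3 (-0.15 ± 0.13), those of complex III Uqcrfs1, the Rieske iron-sulfur protein (0.08 ± 0.05), and Uqcr11 (-0.09 ± 0.09), and those of complex V Atp5f1 (0.08 ± 0.04) and Atp5k (-0.17 ± 0.11). Complex II was narrow, from Sdha at 0.05 ± 0.04 to Sdhb, the iron-sulfur subunit, at -0.004 ± 0.062. None of these passed. The precision was high for most members. For 81 of 99 the 95% interval of the fold change lay within a 1.2-fold change in either direction, and for 94 within 1.5-fold. The exceptions to the wider limit were Cox4i2, Cox6a2, Cox6b2, Cox7a1 and Cox8b.

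**Figure D4:**
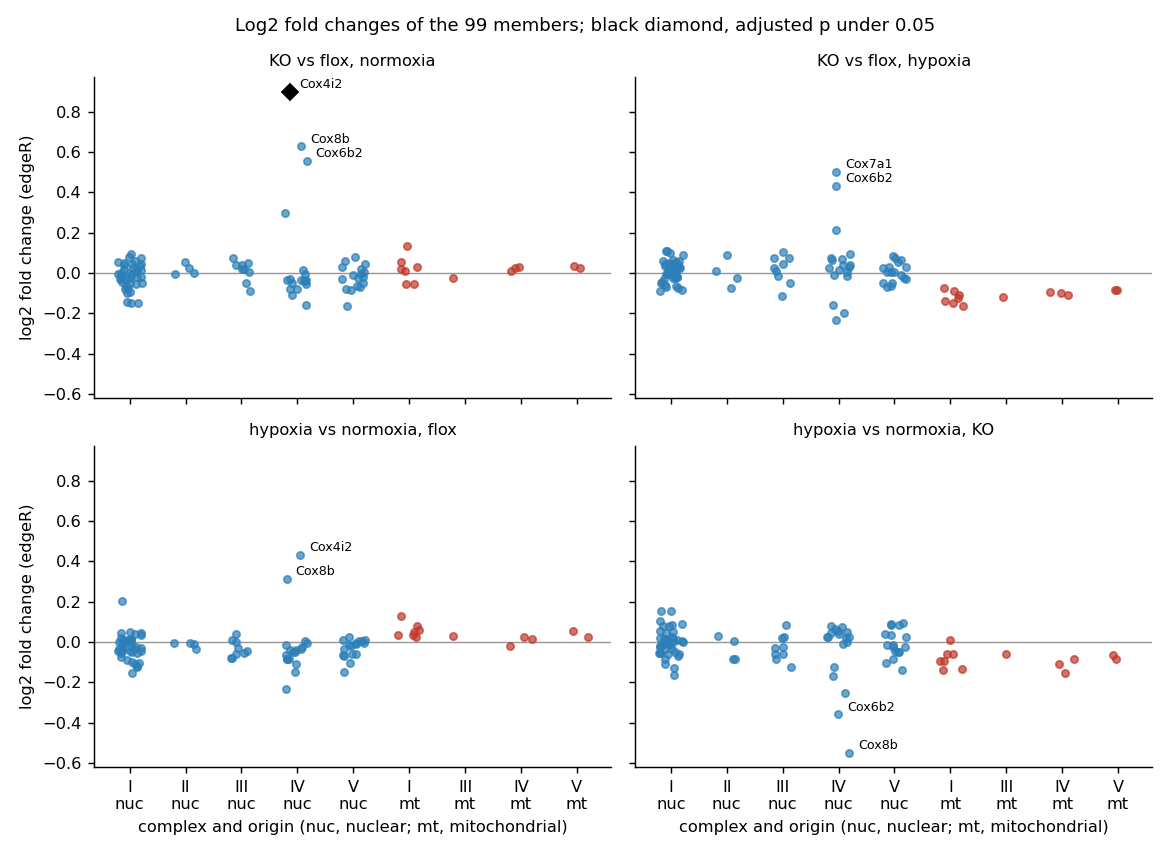
Log2 fold changes of the 99 genes by complex and genome of origin in 4 comparisons; the black diamond marks an edgeR adjusted p under 0.05. Cox4i2 in normoxia is the 1 gene past the threshold, and all 13 mitochondrial genes lie below 0 for KO against flox in hypoxia.

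In hypoxia no member differed between KO and flox past the threshold, although 9.06% of all genes did (6.78% higher and 2.28% lower). The count was 0 of 99 by edgeR, with 7 members at an unadjusted p under 0.05 (22.6% of all genes). DESeq2 called 1, Cyc1. The nuclear median was 0.013, with 52 of 86 above 0 (47.9% of all genes), and all genes had a median of -0.009. For 84 of the 99 the 95% interval lay within 1.2-fold, and for 94 within 1.5-fold. Groups did not overlap for 3 members higher in KO (Cox7a2l, Sdhc and Uqcrfs1; 11.5% of all genes) and 2 lower (Cyc1 among them; 9.37% of all genes).

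Cyc1, cytochrome c1 of complex III, had the lowest adjusted p. It was at 116, 121, 121 and 119 CPM in KO hypoxia, against 130.2, 125 and 131 CPM in flox hypoxia, and all 4 KO libraries lay below all 3 flox libraries. The log2 fold change was -0.11 ± 0.04 (edgeR adjusted p = 0.0669; DESeq2 adjusted p = 0.036). Cox5a, a nuclear subunit of complex IV, was at 47.2, 43.6, 45.2 and 52.5 CPM in KO hypoxia and 53.7, 51.0 and 52.8 CPM in flox hypoxia. Its replicate 4 in KO overlapped the flox libraries while the other 3 lay below them. The log2 fold change was -0.16 ± 0.06 (edgeR adjusted p = 0.0889), and without that replicate it was -0.21 with an adjusted p of 0.00867.

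The 13 mitochondrial genes were all below 0 in this comparison, from -0.16 for mt-Nd2 to -0.07 for mt-Nd3, with a median of -0.107. None was called, 5 had an unadjusted p under 0.05, and for none did the groups separate. mt-Nd2, a membrane arm subunit of complex I, was at 2736, 2775, 2616 and 2554 CPM in KO hypoxia, against 3267, 2994 and 2702 CPM in flox hypoxia. Its log2 fold change was -0.16 ± 0.06 (edgeR adjusted p = 0.0858). mt-Nd1 was at 4208, 4061, 3831 and 4059 CPM in KO and 4761, 4457 and 4134 CPM in flox (-0.14 ± 0.05, edgeR adjusted p = 0.115). mt-Co1 was at 14666, 14025, 13955 and 14606 CPM in KO and 16566, 15619 and 14075 CPM in flox (-0.11 ± 0.05, edgeR adjusted p = 0.19). In each of these genes the third flox library overlapped the KO libraries, and the first was the highest of the 7.

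These differences turned on single flox libraries. Without replicate 3 of flox hypoxia the median was -0.17 and 5 mitochondrial genes were called lower in KO (mt-Co1, mt-Nd1, mt-Nd2, mt-Nd4 and mt-Nd4l, with log2 fold changes of -0.23 to -0.17). Without replicate 1 of flox hypoxia the median was -0.048 and none was called. Without the 4 libraries that hold Xist, 2 of them in KO hypoxia, it was -0.1, and with a sex term it was -0.068. The median was -0.077 without TMM scaling and -0.073 by limma on log2(RPKM + 1). Because the genes share precursor transcripts, agreement in sign among them is not 13 separate observations. Neuronal markers moved in the same direction. Of 12, 3 were called lower in KO hypoxia and none higher, with sums of 7896 to 7926 CPM in KO against 8473 to 8590.0 CPM in flox, and none was at 0. Of 8 parvalbumin interneuron markers 1 was called lower, with a sum of 976 ± 26.1 CPM in KO and 1047 ± 52.8 CPM in flox, while Pvalb itself had a log2 fold change of -0.075 ± 0.115. The part of these cells in the mitochondrial values was not tested.

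**Figure D5:**
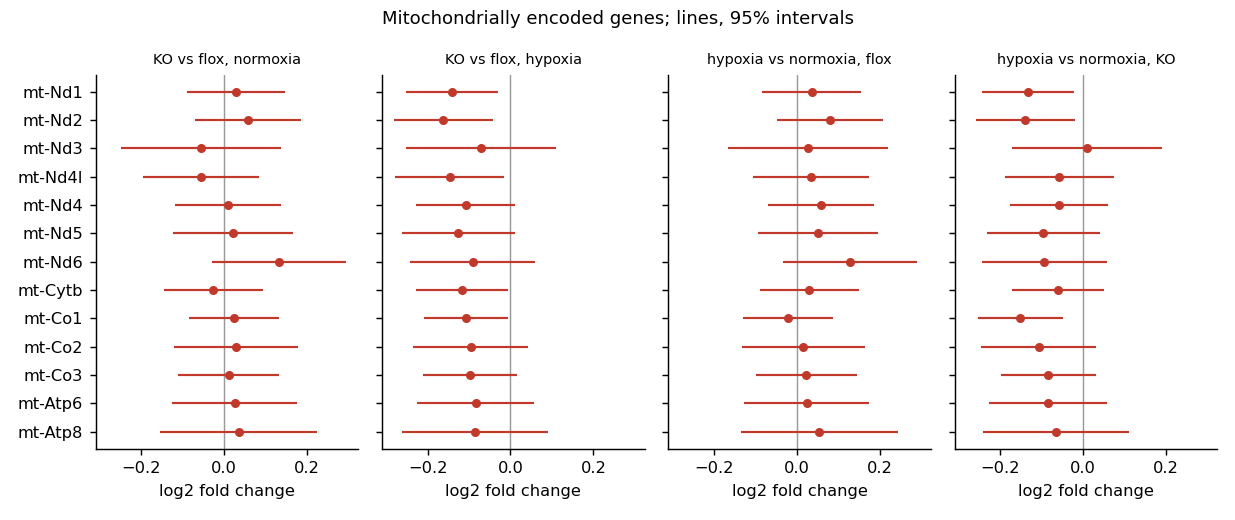
Log2 fold changes of the 13 mitochondrially encoded genes with 95% intervals in 4 comparisons. The points lie below 0 for KO against flox in hypoxia (-0.16 to -0.07) and, apart from mt-Nd3, for hypoxia against normoxia in KO.

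The rare nuclear isoforms were measured imprecisely between genotypes in hypoxia, and for Cox4i2, Cox6a2, Cox6b2, Cox7a1 and Cox8b the 95% interval reached beyond 1.5-fold. Cox4i2 was at 1.48, 1.21, 1.35 and 1.19 CPM in KO, against 1.29, 0.986 and 1.099 CPM in flox, with overlapping groups and a log2 fold change of 0.21 ± 0.18 (edgeR adjusted p = 0.534). In the same comparison endothelial markers had a median log2 fold change of 1.083, and pericyte and smooth muscle markers one of 0.759. Cox7a1 had 0.50 ± 0.31, Cox6b2 0.43 ± 0.24, Cox6a2 -0.20 ± 0.19 and Cox8b -0.23 ± 0.63, and none was called. Sdhc (0.09 ± 0.05), Uqcrh of complex III (0.10 ± 0.06), Ndufa3 (0.11 ± 0.13) and Atp5l (0.085 ± 0.088) were the highest of their complexes. Atp5g1, Atp5g2 and Atp5g3 were at -0.05 ± 0.08, 0.08 ± 0.08 and 0.03 ± 0.04, and Ndufa4, a subunit of complex IV, at 0.03 ± 0.06.

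Ndufa4l2, a paralog of Ndufa4 and a known target of hypoxia-inducible factor that is also a pericyte marker, is not a member by the rule but belongs beside Ndufa4. It was at 9.17, 6.02, 6.59 and 4.86 CPM in KO hypoxia, against 2.93, 2.23 and 2.63 CPM in flox hypoxia, and the groups did not overlap. The log2 fold change was 1.36 ± 0.22 (edgeR adjusted p = 0.000762), and 1.17 without replicate 1 of KO hypoxia (adjusted p = 0.001). In normoxia it was at 2.94, 3.15 and 3.54 CPM in KO and 1.44, 2.64 and 1.74 CPM in flox, a log2 fold change of 0.73 ± 0.23 that was not called (edgeR adjusted p = 0.143). Without replicate 2 of flox normoxia it was 1.01 and was called (edgeR adjusted p = 0.0452), as it was by DESeq2 (adjusted p = 0.0454) and with no filter on low counts (edgeR adjusted p = 0.0114). In hypoxia 8 of the 12 pericyte and smooth muscle markers, Ndufa4l2 among them, were called higher in KO, with sums of 434 to 571 CPM in KO against 286 to 290.0 CPM in flox, and 12 of 12 endothelial markers. Their part in the Ndufa4l2 result was not tested.

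Hypoxia against normoxia in flox brains called none of the 99 members, beside 0.0222% of all genes. By edgeR 1 member, Cox4i2, reached an unadjusted p under 0.05 (6.65% of all genes), and DESeq2 also called 0. Cox4i2 was at 1.29, 0.986 and 1.099 CPM in flox hypoxia, against 0.898, 0.726 and 0.883 CPM in flox normoxia. Each hypoxia library lay above each normoxia library, and the log2 fold change was 0.43 ± 0.20 (edgeR adjusted p = 0.731). Endothelial markers had a median log2 fold change of 0.443 here, and pericyte and smooth muscle markers one of 0.254. Among nuclear members 62 of 86 were below 0 with a median of -0.035, whereas 12 of 13 mitochondrial genes were above 0 with a median of 0.034. The mitochondrial median turned on single libraries, at -0.025 without replicate 1 of flox hypoxia and 0.106 without replicate 3, while the nuclear one stayed between -0.042 and -0.013 with any 1 library left out. Of all genes 49.4% were above 0, with a median of -0.002. Libraries did not overlap for 7 further members that were lower in hypoxia (Atp5e, Cox7a2, Ndufa13, Ndufa6, Ndufv3, Sdhc and Uqcrfs1; 5.98% of all genes), and Cox4i2 was the 1 higher member (6.56% of all genes).

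The furthest values in flox were small for abundant genes. In complex I they were Ndufs6b (0.21 ± 0.17) and Ndufa6 (-0.16 ± 0.08), in complex III Uqcrc2, a core protein (0.04 ± 0.04), and Uqcr11 (-0.08 ± 0.09), and in complex V mt-Atp8 (0.05 ± 0.09) and Atp5k (-0.15 ± 0.11). Complex II lay between -0.034 for Sdhc and -0.004 for Sdhd. The lowest value of complex IV was that of Cox6b2 (-0.23 ± 0.25). For 83 of 99 members the 95% interval lay within 1.2-fold.

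In KO brains hypoxia against normoxia also called none of the 99 members, beside 0.897% of all genes (0.622% higher and 0.275% lower). By edgeR 9 members had an unadjusted p under 0.05 (14.3% of all genes), all with negative fold changes, and DESeq2 called 1, Cyc1. These 9 were Cyc1 and Uqcrc1 of complex III, Cox5a and mt-Co1 of complex IV, Atp5a1 and Atp5b of the ATP synthase, Sdha of complex II, and mt-Nd1 and mt-Nd2 of complex I. Cyc1 was at 116, 121, 121 and 119 CPM in KO hypoxia, against 133, 126 and 130.04 CPM in KO normoxia, without overlap (-0.12 ± 0.04, edgeR adjusted p = 0.122; DESeq2 adjusted p = 0.0447). Cox5a was at 47.2, 43.6, 45.2 and 52.5 CPM in KO hypoxia and 53.97, 51.5 and 53.3 CPM in KO normoxia, with replicate 4 again the highest hypoxia library and within the range of the normoxia group (-0.17 ± 0.05, edgeR adjusted p = 0.156).

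The alpha and beta subunits of the ATP synthase were among the members whose libraries separated by oxygen level in KO. Atp5a1 was at 691, 678, 682 and 722 CPM in KO hypoxia and 746, 733 and 754 CPM in KO normoxia (-0.10 ± 0.04, edgeR adjusted p = 0.209). Atp5b was at 877, 892, 910.0 and 886 CPM in KO hypoxia and 947, 940.0 and 944 CPM in KO normoxia (-0.08 ± 0.03, edgeR adjusted p = 0.208). In both, every hypoxia library lay below every normoxia library. In total 9 members showed this separation (Atp5a1, Atp5b, Atp5f1, Atp5s, Cyc1, mt-Co1, Ndufs7, Sdha and Uqcrc1; 6.04% of all genes), and for 0 did every hypoxia library lie above (6.59% of all genes). The nuclear median was 0, and 43 of 86 were above it (52.5% of all genes).

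Mitochondrial genes in KO had a median of -0.085 for hypoxia against normoxia, with 12 of 13 below 0 and mt-Nd3 at 0.01. mt-Co1 was at 14666, 14025, 13955 and 14606 CPM in KO hypoxia and 16093, 16768 and 14857 CPM in KO normoxia, and the groups did not overlap, though the gap beside the third normoxia library was narrow (-0.15 ± 0.05, edgeR adjusted p = 0.141). The median was -0.031 without replicate 2 of KO normoxia and -0.141 without replicate 3. The KO hypoxia libraries entered both this comparison and that between genotypes in hypoxia, so the lower values in both are not independent. Cox4i2 was at -0.25 ± 0.17, Cox6b2 at -0.36 ± 0.22 and Cox8b at -0.55 ± 0.61, and none was called. Vessel wall markers were above 0 here, with a median log2 fold change of 0.547 for endothelial markers and 0.367 for pericyte and smooth muscle markers. Ndufa4l2 was higher in KO hypoxia than in KO normoxia (1.06 ± 0.21, edgeR adjusted p = 0.0308), but the call was lost without any 1 of the 3 KO normoxia libraries or without replicate 1 or 3 of KO hypoxia (0.87 to 1.13, adjusted p = 0.054 to 0.149). It was also lost in a fit of only the libraries compared (edgeR adjusted p = 0.0698) and without the Xist libraries (0.0533). By limma the adjusted p was 0.0533 on log2(RPKM + 1) and 0.0675 with 0.1 added.

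Whether hypoxia acted differently in KO and flox was tested as the interaction of genotype and oxygen. No member was called, nor was any of all genes (0%), and 5 members had an unadjusted p under 0.05 (7.26% of all genes). Those were Cox4i2 (-0.68 ± 0.26, edgeR adjusted p = 0.625), Cyc1 (-0.13 ± 0.05), mt-Nd1 (-0.17 ± 0.08), mt-Nd2 (-0.22 ± 0.08) and mt-Nd6 (-0.22 ± 0.10). For Cox4i2 the negative sign reflects values of 1.297 to 1.74 CPM in KO normoxia and 1.19 to 1.48 CPM in KO hypoxia, against 0.726 to 0.898 CPM in flox normoxia and 0.986 to 1.29 CPM in flox hypoxia. The 13 mitochondrial genes were all below 0 (median -0.12) and nuclear genes had a median of 0.02, beside 0.006 for all genes, of which 51.5% were above 0. The mitochondrial median was -0.056 without replicate 1 of flox hypoxia and -0.196 without replicate 3, and -0.074 without replicate 2 of KO normoxia and -0.185 without replicate 3. With a sex term it was -0.085, and without the libraries that hold Xist -0.167. The nuclear median changed sign with the libraries left out, from -0.017 without replicate 3 of KO normoxia to 0.073 without replicate 1. Precision was lower here, and 45 of 99 intervals lay within 1.2-fold and 93 within 1.5-fold, Ndufa3 (0.26 ± 0.18) being a further exception.

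Genes that build, feed or regulate the chain were read as lists. Of 50 assembly factors tested, none was called for KO against flox in normoxia (median -0.003), and 1 was lower in hypoxia (median -0.026), a share no higher than the 2.28% of all genes called lower there. It was Ttc19, a complex III assembly factor, at 77.7, 87.3, 84.8 and 79.7 CPM in KO hypoxia, against 92.99, 96.8 and 90.8 CPM in flox hypoxia, without overlap (-0.18 ± 0.04, edgeR adjusted p = 0.012). Ttc19 was also lower in KO hypoxia than in KO normoxia, where it was at 93.7, 96.7 and 97.5 CPM (-0.22 ± 0.04, edgeR adjusted p = 0.0294). It was the 1 of 50 assembly factors called between oxygen levels in KO, where 0.275% of all genes were called lower. The KO hypoxia libraries entered both comparisons, so the lower Ttc19 values in both are not independent. Of 18 electron carrier and supercomplex genes none was called in any comparison, with genotype medians of -0.008 at normal and 0.02 at low oxygen.

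Of 23 genes for mitochondrial biogenesis and mitochondrial DNA upkeep, 1 was called for KO against flox in hypoxia, where 9.06% of all genes were called, and none in normoxia. Polg, the mitochondrial DNA polymerase, was at 65.4, 63.1, 64.2 and 61.2 CPM in KO hypoxia and 70.4, 71.4 and 72.4 CPM in flox hypoxia, without overlap (-0.17 ± 0.04, edgeR adjusted p = 0.0138). The list median was -0.057 in hypoxia and -0.019 in normoxia. Ppargc1a, the coactivator PGC-1alpha that promotes mitochondrial gene expression, was not called (-0.09 ± 0.06 in hypoxia and -0.02 ± 0.06 in normoxia). Neuronal marker sums, given above, were also lower in KO hypoxia, and their part in the Ttc19 and Polg values was not tested.

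Of 15 mitochondrial and metabolic genes known to respond to hypoxia, a list that holds Cox4i2 and Ndufa4l2, 2 were higher in KO than in flox in normoxia and none was lower (1.96% of all genes were higher). Beside Cox4i2 this was Slc2a1, the glucose transporter GLUT1 of brain endothelium, at 172, 145 and 138 CPM in KO and 78.9, 77.7 and 108 CPM in flox (0.78 ± 0.15, edgeR adjusted p = 0.01). In hypoxia 5 were higher and none lower (6.78% of all genes were higher). Slc2a1 was at 288, 196, 190.1 and 199 CPM in KO and 107, 96.1 and 111 CPM in flox (1.06 ± 0.14, edgeR adjusted p = 0.000201). Pdk1, the kinase that switches off pyruvate dehydrogenase, was at 89.7, 77.8, 83.2 and 79.9 CPM in KO hypoxia and 69.8, 69.3 and 72.0 CPM in flox hypoxia (0.23 ± 0.06, edgeR adjusted p = 0.0136). Groups did not overlap for either gene.

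The remaining calls in that list were Ndufa4l2, Bnip3l, a receptor for removal of mitochondria (0.25 ± 0.06, edgeR adjusted p = 0.0151), and Ldha, the lactate dehydrogenase subunit (0.19 ± 0.05, edgeR adjusted p = 0.0422). List medians were 0.119 in normoxia and 0.071 in hypoxia. In flox brains hypoxia called none of the 15 (median 0.081), and in KO brains it called 1, Ndufa4l2 (median 0.066). Slc2a1 moved with the endothelial markers named above, whose part in it was not tested. Erythroid and endothelial marker sums, given above, were higher in KO hypoxia than in flox hypoxia. Their part in the Pdk1, Bnip3l and Ldha values was not tested either.

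Members varied little between libraries of a group. The median SD of log2 CPM within a group was 0.0874 for the 99 members, 0.08495 for the nuclear and 0.0946 for the mitochondrial ones, against 0.1449 for all 22507 genes, which include many with fewer counts. The median SE of a member's log2 fold change between genotypes was 0.067 in normoxia and 0.063 in hypoxia. Between oxygen levels it was 0.067 in flox and 0.062 in KO, and for the interaction 0.091. The highest SE in normoxia was that of Cox8b (0.651) and the lowest that of Atp5b (0.032).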

How the data were processed

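Raw counts and RPKM values for each gene were deposited by the authors, whose processing notes name HISAT2, edgeR and GRCm39 without roles (per the submitters' processing notes). The kit is stranded, per the series' design text, but whether counting used strand is not given in the sources used here. RPKM values, deposited by the authors, divide counts by library total and 1 length per gene and were used for levels; the deposited counts were used for tests. Symbols came from a name table (52083 of 55416 identifiers).

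Counts were tested with edgeR 4.0.16 (filterByExpr over the 4 groups, TMM, 4 group means, all 13 libraries, common dispersion 0.00967). Standard errors come from the quasi-likelihood F statistic, and 95% intervals cover the spread between libraries. A count of 0 allows up to 3 counts, or 0.0421 to 0.0713 CPM (counting error only). No library repeated another (chi-square per degree of freedom at least 4.44). Alternatives were other scalings and filters, DESeq2 1.42.0, limma 3.58.1 on log2(RPKM + 1) or with 0.1 added, a replicate block, a sex term, restricting the fit to the groups compared and omitting each library in turn; a fit without the 4 Xist libraries was chosen after seeing the data. Scripts were tested on simulated data. The members, gene lists and tests were chosen with earlier results of these data known. Genes were named by rule: calls, isoform families, mitochondrial genes and the ends of each complex; others were named after their values were seen. One member's own values are not reported here; group counts and sums include it.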

Additional observations from a re-analysis of the deposited data

Results flagged for a closer look

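The group KO hypoxia has 4 libraries, the others 3, so each member was checked for a library standing apart in KO hypoxia alone. This was so for 7 of 99 genes. For a single gene the check marks 1 in 20 by chance. The 99 genes come from the same libraries and are not separate trials, so this rate cannot judge the count. Replicate 4 was the highest in 5 of them: Cox6c at 90.9 CPM (the others 81.3 to 82.7), Cox7a2l at 81.3 (73.3 to 74.5), Ndufa13 at 63.7 (53.99 to 54.9), Ndufb8 at 57.6 (49.2 to 49.4) and Ndufv1 at 131.9 (120.8 to 122.5). Replicate 1 was the lowest in 2: Ndufs6b at 3.64 CPM (5.44 to 5.71) and Ndufs7 at 48.97 (52.7 to 52.8). The nuclear members' share of counts was also highest of all 13 libraries in replicate 4 (0.732%) and lowest in replicate 1 (0.653%). Replicate 4 is one of the libraries with Xist, and replicate 1 is the one with 17400 CPM of erythroid transcripts; the part of either was not tested.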

How the results depend on the processing

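No result changed direction with a call under any setting tried. The count of members called for KO against flox in normoxia was 1, and 0 in a fit of only the libraries compared and in a fit without the 4 Xist libraries; leaving out 1 library gave 0 to 1. In hypoxia it was 0, and 2 with no filter (mt-Nd1 and mt-Nd2), 1 with DESeq2 (Cyc1), 1 with the replicate block and 1 without the Xist libraries (both Cox5a), and 0 to 5 leaving out 1 library. For hypoxia against normoxia in KO it was 0, and 1 with no filter (mt-Co1), 1 with DESeq2 (Cyc1), 1 with the replicate block (Cox5a) and 0 to 1 leaving out 1 library (Cox5a, without KO hypoxia replicate 4). The cause was not tested. Leaving out 1 library moved the nuclear medians between genotypes to between -0.066 and 0.017 in normoxia and between -0.012 and 0.043 in hypoxia, the mitochondrial one in normoxia to between -0.03 and 0.069, and the nuclear one between oxygen levels in KO to between -0.04 and 0.047, each across 0. The nuclear median for the interaction was 0.02, and -0.07 without the Xist libraries. With nuclear genes alone as the denominator the nuclear shares were 0.733% (KO) and 0.726% (flox) in normoxia and 0.7265% (KO) and 0.7175% (flox) in hypoxia, and the mitochondrial counts came to 5.02% in flox normoxia and 4.79% in KO hypoxia, by construction. Libraries were not treated as paired by replicate number in the main fit. Same-number correlations of deviations ran from -0.018 to 0.136 (median 0.024) and different-number ones from -0.131 to 0.093 (median -0.006). Of 12 libraries, 2 correlated best with their own number throughout. With so few libraries per group, these correlations cannot exclude pairing. At 41 to 93 counts for Cox4i2, depth limits the rare isoforms.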

Other observations

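Enzymes that feed the chain were read as a list of 23 genes of the citric acid cycle and pyruvate dehydrogenase. Their summed level was 2653 ± 40.03 CPM in KO hypoxia (SD, n = 4), against 2760.0 ± 16.9 CPM in flox hypoxia (n = 3), and 2823 ± 5.74 CPM in KO normoxia, against 2763 ± 60.6 CPM in flox normoxia (n = 3 each). The KO hypoxia libraries ran from 2598 to 2691 CPM and lay below the 3 libraries of flox hypoxia and of KO normoxia. The flox normoxia libraries ran from 2693 to 2803 CPM, so their lowest was close to the highest of KO hypoxia. For KO against flox in hypoxia 20 of 23 genes were below 0 (median -0.068, all genes -0.009, with 47.9% of all genes above 0). An unadjusted p under 0.05 was reached by 8 (22.6% of all genes), and 1 was called, Pdk1, which was higher. For hypoxia against normoxia in KO 20 of 23 were below 0 (median -0.099, all genes 0.009, with 52.5% of all genes above 0). Of them 14 had an unadjusted p under 0.05 (14.3% of all genes) and edgeR called 0. Both comparisons use the KO hypoxia libraries. In normoxia 17 of 23 were above 0 for KO against flox (median 0.048), beside 48.9% of all genes. Neuronal marker sums followed the same order of groups in hypoxia, at 7910 CPM in KO and 8518 CPM in flox, and their part in these values was not tested.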
